A study of Homo sapiens with 15 samples.

Results

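The G2/M and mitosis genes are 54 genes that act between the end of DNA replication and the separation of the daughter cells. They were taken by gene symbol from a fixed list, not by a threshold on their values in these samples. All 54 were found among the 61248 loci of the table, and 52 of them passed the filter of at least 1 FPKM in at least 3 of 15 libraries, as did 14999 loci in all. FPKM counts fragments for each kilobase of a gene, relative to all fragments of its library. The RNA came from the human lung cancer cell line NCI-H1975, an established line, in 5 groups of 3 libraries. One group was the control, another received almonertinib, a drug that blocks the kinase of the growth factor receptor EGFR, and another EGF, which binds and activates that receptor. The remaining groups received siRNA: siNC is the non-targeting control, and siEGFR targets the EGFR transcript. No other agent or allele is given for any group, and the labels state no dose, time or culture condition. Every library comes from 1 cell line, and the labels do not say whether the 3 libraries of a group were separate cultures. The p-values therefore rest on the spread among libraries alone, and that spread may be technical.

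Entry into mitosis is driven by the kinase CDK1 bound to cyclin A or cyclin B, and exit from it by the anaphase-promoting complex, a ubiquitin ligase that has the cyclins and securin destroyed. Transcripts of these genes are scarce in resting and early cycling cells and accumulate towards mitosis. In early phases the DREAM complex represses their promoters, and later the MuvB core joins with B-MYB (MYBL2) and FOXM1 to activate them, with the factor NF-Y bound to CCAAT boxes. Growth factor receptors such as EGFR are known to drive cells into this cycle through cyclin D and the retinoblastoma pathway. In a bulk library, more cells in G2 or mitosis and more RNA per such cell cannot be told apart.

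The promoters are shown because these genes are known to share 2 short elements, and because the members moved together in the groups described below. RefSeq promoters (GRCh38.p14, 250 bases before to 50 after the start) were matched to 46 of the 54 members by symbol. For the 8 members with several listed starts the one listed first was used. The letters searched on both strands were CCAAT, the NF-Y box (ATTGG on the other strand), and TTTGAA, the core of the cell cycle genes homology region or CHR (TTCAAA on the other strand). In the following promoters, written 5′ to 3′ on the strand of the gene from 150 bases before to 30 after the start, capitals mark these letters. CCNB2 encodes a mitotic cyclin, PLK1 a mitotic kinase, and HMMR a spindle protein. SPC25 and SPC24 encode partner subunits of the NDC80 complex and differed in their response to almonertinib. MYBL2, with the largest change under EGF among the members on the log2(FPKM + 1) scale, has neither CCAAT nor TTTGAA in this window.
CCNB2 (chr15:59104996-59105175, plus strand): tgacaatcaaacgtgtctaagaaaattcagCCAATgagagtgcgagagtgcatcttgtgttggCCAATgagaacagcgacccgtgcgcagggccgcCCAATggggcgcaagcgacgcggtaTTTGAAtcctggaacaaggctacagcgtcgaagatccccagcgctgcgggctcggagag
PLK1 (chr16:23678739-23678918, plus strand): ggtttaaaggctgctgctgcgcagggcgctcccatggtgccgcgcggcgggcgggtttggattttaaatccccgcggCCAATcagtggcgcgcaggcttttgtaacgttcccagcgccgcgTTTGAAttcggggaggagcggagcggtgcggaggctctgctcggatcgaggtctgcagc
HMMR (chr5:163460482-163460661, plus strand): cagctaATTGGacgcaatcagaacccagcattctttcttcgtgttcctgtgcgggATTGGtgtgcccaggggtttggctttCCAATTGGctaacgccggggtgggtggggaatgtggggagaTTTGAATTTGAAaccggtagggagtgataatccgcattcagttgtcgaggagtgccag
SPC25 (chr2:168890401-168890580, minus strand): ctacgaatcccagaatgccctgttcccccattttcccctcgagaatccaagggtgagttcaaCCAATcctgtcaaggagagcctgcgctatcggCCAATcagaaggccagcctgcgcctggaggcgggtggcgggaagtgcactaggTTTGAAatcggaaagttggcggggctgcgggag
SPC24 (chr19:11155753-11155932, minus strand): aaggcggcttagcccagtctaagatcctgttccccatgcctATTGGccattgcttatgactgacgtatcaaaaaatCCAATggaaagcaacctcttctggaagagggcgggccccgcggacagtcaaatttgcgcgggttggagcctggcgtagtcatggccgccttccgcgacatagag
MYBL2 (chr20:43666964-43667143, plus strand): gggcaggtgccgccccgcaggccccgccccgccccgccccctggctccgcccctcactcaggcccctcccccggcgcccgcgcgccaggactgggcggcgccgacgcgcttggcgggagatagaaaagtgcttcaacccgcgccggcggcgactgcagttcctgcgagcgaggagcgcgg

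In CCNB2 the CCAAT boxes at -120, -87 and -54 bases stood upstream of a single TTTGAA at -29, where a position is that of the first base of the match relative to the start. PLK1 had a single CCAAT at -73 and TTTGAA at -29. In HMMR a pair of TTTGAA followed each other at -28 and -22. SPC25 had TTTGAA at -3, and SPC24, whose promoter held CCAAT at -74 and on the other strand at -109, had none.

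TTTGAA within 50 bases of the start was found in 27 of 46 members (58.7%) and in 264 of 9918 promoters of genes past the filter (2.66%). With any listed start of a gene counted, these shares were 63% and 4.17%. Among 31 promoters of G1/S and replication genes, which act earlier in the cycle, none had it. Of 45 promoters of other G2/M and mitosis genes, 46.7% had it at the start listed first. At least 1 CCAAT stood in 71.7% of the members' promoters and in 36.8% of those of genes past the filter, and at least 2 in 43.5% and 14.3%. CCAAT was not particular to the members. At least 1 stood in 68.9% of the other G2/M promoters and 61.3% of the G1/S ones, and at least 2 in 40% and 38.7%. The median position was -75 for 70 CCAAT matches and -24.5 for 42 TTTGAA matches, so the second element lay nearer to the start. A match of letters is a description of the sequence, not a measured binding site.

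**Figure D1:**
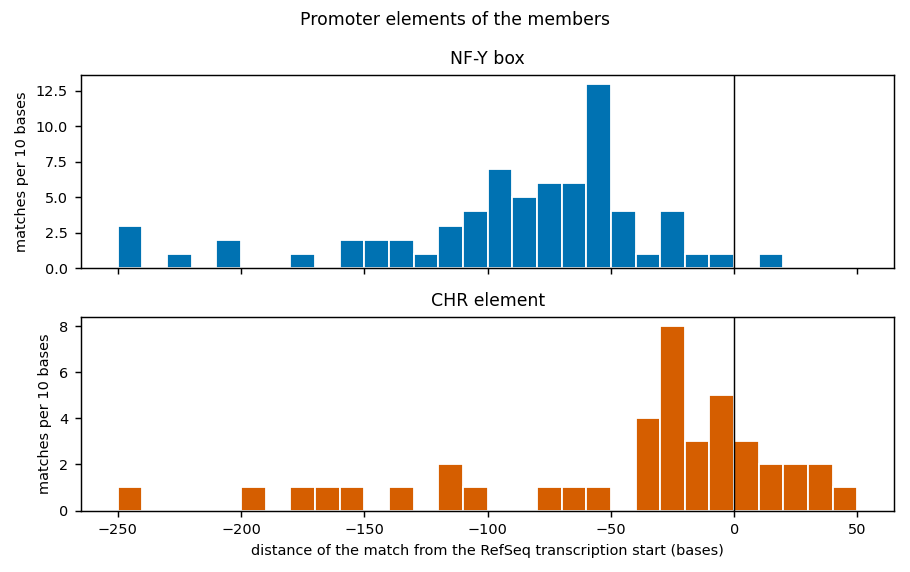
Number of matches per 10 bases (vertical axis) against distance from the RefSeq start in bases (horizontal axis) in the promoters of 46 members, for the NF-Y box (upper panel, 70 matches) and the CHR element (lower panel, 42 matches). The upper matches gather upstream of those in the lower panel, with medians at -75 and -24.5 bases.

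Read totals recovered from the steps of the values ran from 18009903 to 34908302 per library, and 1 read in a gene of 1 kb was worth 0.0286 to 0.0555 FPKM. EGFR, the target of drug and siRNA, was at 49.4, 49.4 and 49.8 FPKM in siNC and 29.9, 28.6 and 28.9 FPKM in siEGFR, a level of 58.8% (-0.75 ± 0.11, adjusted p = 0.00165). It was at 28.01, 22.3 and 22.8 FPKM in control, and the means of both siRNA groups were higher than that. With almonertinib EGFR was at 19.2, 15.4 and 15.5 FPKM, lower than in control (-0.52 ± 0.11, adjusted p = 0.00521). With EGF it was at 30.2, 22.1 and 23.9 FPKM (0.05 ± 0.11, adjusted p = 0.722). Epithelial keratins marked every library, with KRT8 at 231, KRT18 at 155 and KRT19 at 589.5 FPKM on average in control. The other genes of the epithelial list differed more between groups. EPCAM (-2.60), KRT7 (-2.36) and CDH1 (-2.47) were lower with EGF than in siNC on the log2(FPKM + 1) scale. There KRT18 was lower (-0.23), KRT19 higher (0.63) and KRT8 did not pass (0.14). Of 6 leukocyte markers only CD14 passed the filter, and the T cell gene CD3E did not exceed 0.0373 FPKM. Of 8 fibroblast and endothelial markers 4 passed, led by the collagen gene COL1A2 at 328 FPKM in control, while DCN was at 0 in all control, EGF and siEGFR libraries.

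The members were lowest with almonertinib, somewhat higher in control, and several times higher with EGF and in both siRNA groups. Their summed level was 494 ± 24.7 FPKM in control, 442 ± 27.4 with almonertinib, 1175 ± 49.1 with EGF, 1654 ± 30.6 in siNC and 1868 ± 3.93 in siEGFR (SD, n = 3). Abundant genes weigh most in such a sum. It includes CDC25B, which averaged 86.3 FPKM in control and 114 with almonertinib, against the direction of the sum. For 44 of 54 members the group means stood in the order almonertinib, control, EGF, siNC, siEGFR, from low to high. Almonertinib was the lowest group for 51 members and siEGFR the highest for 47. CDC25B was the member with the highest mean in almonertinib, and siNC was the highest group for the other 6. Among these 6 are NUSAP1 and PRC1, which failed the filter.

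**Figure D2:**
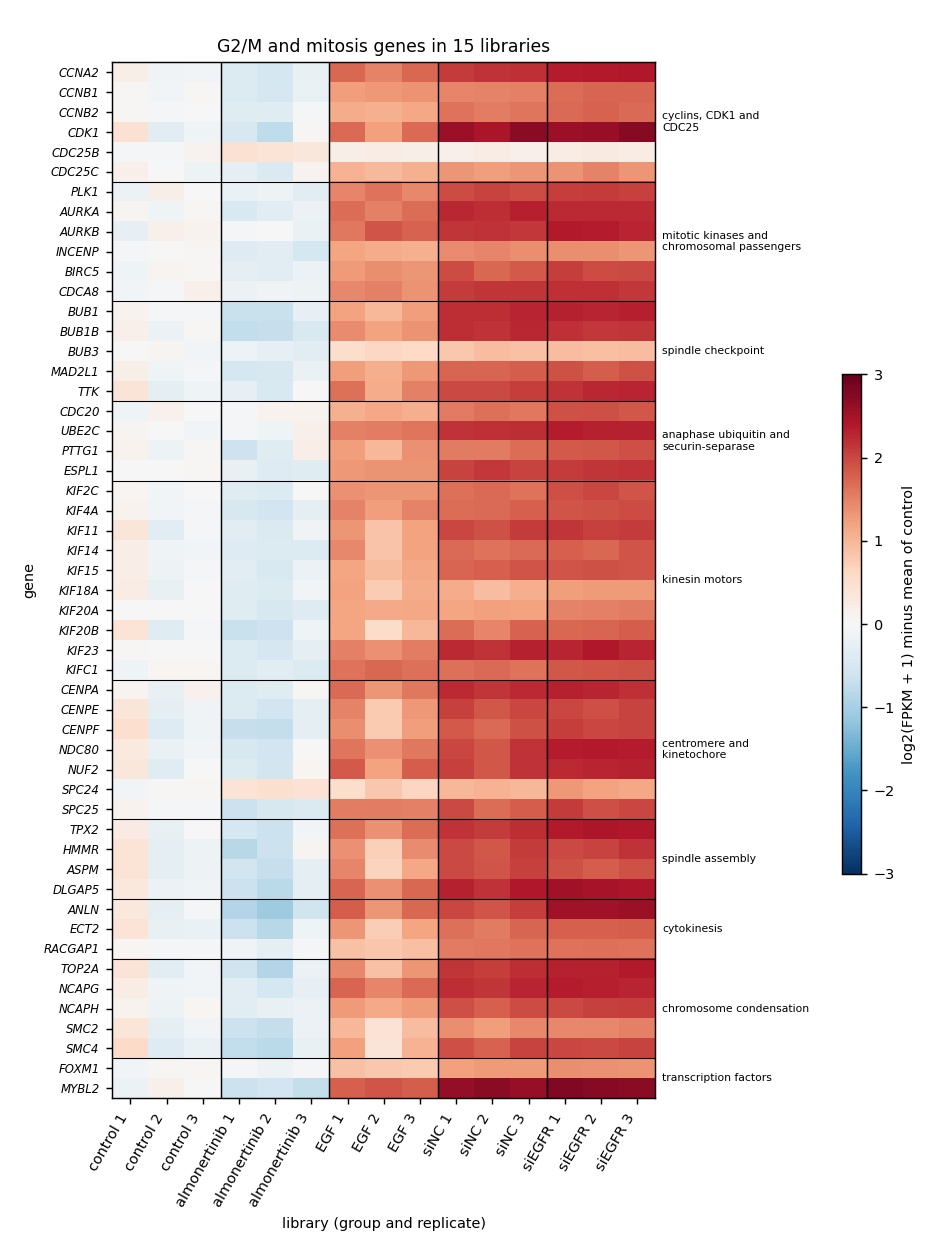
Level of the 52 members past the filter in each library, as log2(FPKM + 1) minus the mean of the 3 control libraries (colour scale from -3 to 3), with genes in rows grouped by role and libraries in columns. The EGF columns and, more so, the siNC and siEGFR columns are red for nearly every gene, the almonertinib columns are pale blue, and CDC25B and SPC24 depart from the other rows.

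EGF against control asks what the ligand of the receptor does to these genes. All 52 tested members rose, by a median of 1.23 on the log2(FPKM + 1) scale, against a median of -0.04 over all loci tested. Of all loci 22% rose. For 51 members every EGF library lay above every control library, which held for 22.3% of loci, and SMC4 was the exception. The means ranged from 114% of control for CDC25B to 421% for SPC25. Other genes moved in this comparison too. Of the 4 fibroblast and endothelial markers tested 3 fell, and the list summed to 332 to 346 FPKM in control and 193 to 214 with EGF. The epithelial genes EPCAM (-0.34) and CDH1 (-1.09) fell and the other 4 of the list did not pass, with sums of 923 to 1124 and 932 to 1095 FPKM, and the leukocyte list, nearly all CD14, was at 30.8 to 40.6 and 36.04 to 39.1. Of 4 RNA quality and nuclear RNA genes GAPDH (0.43) and ACTB (0.61) rose and NEAT1 fell (-0.97). The part of these in the result was not tested. Both cyclins B, PLK1, the Aurora kinases, the kinesins and the kinetochore genes are among the genes that rose.

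Almonertinib against control asks what blocking the kinase does. Of the 52 members 27 fell, 2 rose and 23 did not pass the test, with a median change of -0.37 against -0.06 over all loci. Of all loci 18% fell and 12.1% rose. For 26 members every almonertinib library lay below every control library, which held for 20.6% of loci. Means ranged from 45.8% of control for CENPE to 139% for SPC24. In a fit of these 6 libraries alone, 6 members fell and 2 rose (3.05% of loci fell), and with the values scaled to TPM 36 fell (25.8% of loci). Of all calls 40.2% were higher ones, against 22% with TPM and 53.7% with median-ratio scaling. Without the libraries control 1, almonertinib 3 and EGF 2, 43 members fell (22.2% of loci). Without almonertinib 2 alone 16 fell (10.8% of loci), and without control 1 alone 18 (11.9%). Of the markers of cell type, KRT7 (-0.72), CDH1 (-0.50) and PECAM1 (-0.38) fell and COL1A1 rose (0.51). Their lists summed to 926 to 1043 FPKM for epithelial, 35.2 to 41.7 for leukocyte and 352 to 374 for fibroblast and endothelial markers with almonertinib, and their part in the result was not tested.

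The negative-control siRNA group is needed to read the knockdown, and it stood far from the control group. All 52 tested members were higher in siNC than in control, by a median of 1.90 on the log2 scale, with no overlap of libraries for any of them. Of all loci 34.4% were called higher and 35.5% lay above without overlap. The labels do not say how the siNC and control cultures were otherwise matched, so siRNA treatment and culture cannot be told apart. Markers of cell type moved with this comparison. Of 6 epithelial markers 4 were higher in siNC and 1 lower, with EPCAM at 6.58 FPKM in control and 35.2 in siNC, and their sum was 923 to 1124 FPKM in control and 1096 to 1142 in siNC. The leukocyte markers summed to 30.8 to 40.6 FPKM in control and 7.45 to 8.09 in siNC, nearly all of it CD14, and the fibroblast and endothelial markers to 332 to 346 and 138 to 145. Their part in the result was not tested. For most members EGF stood between control and siNC: 44 members were lower with EGF than in siNC (28.1% of loci were), with a median of -0.57, and 49 lay below without overlap (37% of loci).

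Knockdown of EGFR, read against siNC, gave few calls among these genes. KIF20A, CDC20 and KIFC1 rose, none fell, and 49 did not pass the test (2.27% of all loci rose). The median change was 0.12, against 0.01 over all loci. For 32 members every siEGFR library lay above every siNC library, and for none below, while 22.7% of loci lay above. The siRNA libraries had the smallest spread, with a median SD of 0.06 for siNC and 0.04 for siEGFR over the members (log2 units), against 0.17 for control. In a fit of these 6 libraries alone 20 members rose (10.8% of loci), and without control 1, almonertinib 3 and EGF 2 15 rose (7.53% of loci), in both cases with none lower. With the length and GC trends removed 10 rose (5.48% of loci), and with any 1 of the 6 libraries left out 1 or 2 rose. Of the markers of cell type, EPCAM (-0.78), CDH1 (-0.62) and CD14 (-0.85) fell with the knockdown, and COL1A1 (0.68) and COL1A2 (0.44) rose. In siNC and siEGFR the fibroblast and endothelial markers summed to 138 to 145 and 192 to 194 FPKM, the leukocyte markers to 7.45 to 8.09 and 4.01 to 5.14, and the epithelial markers to 1096 to 1142 and 1119 to 1142. Their part in the result was not tested.

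The difference between the drug effect and the knockdown effect was tested itself, over 12 libraries with no shared control. It was below 0 for 22 members and above 0 for CDC25B, with a median of -0.50 (7.71% and 5.95% of all loci). The 10 members with the smallest p were KIF20A (-0.72 ± 0.06, adjusted p = 1.6e-05), KIFC1 (-0.60), MYBL2 (-0.73), ANLN (-1.40), CCNB1 (-0.59), SPC25 (-0.71), KIF4A (-0.64), ESPL1 (-0.41), KIF23 (-0.49) and CCNA2 (-0.61 ± 0.13, adjusted p = 0.00839). Each of these 10 was lower with almonertinib than in control and higher in siEGFR than in siNC by its mean. Without control 1, almonertinib 3 and EGF 2 the difference was below 0 for 45 members (17.2% of loci), and without almonertinib 3 alone for 34 (12.1%). Of all calls 43.5% were above 0, against 24.3% with TPM and 57.4% with median-ratio scaling. TPM scaling moved the median over all loci from -0.07 to -0.18.

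The sum of the EGF and almonertinib effects, which is 0 where they cancel, was above 0 for 42 members (8.3% of all loci), with a median of 0.94, and below 0 for none. Among the 42, CDC25B, SPC24 and CDC20 were higher with almonertinib than in control by their means, so both of their effects point upward. These effects share the control libraries. The 10 members that did not pass were KIF20B, CENPE, CENPF, HMMR, ASPM, ANLN, ECT2, TOP2A, SMC2 and SMC4. Fitted on these 9 libraries alone, the sum was above 0 for 29 members (3.54% of loci). Of all calls 37.8% were above 0, against 26.6% with TPM scaling. Across members the sum went with log2 length (Pearson -0.66, Spearman -0.65), against -0.09 and -0.23 across 14410 loci. With GC content these were 0.42 and 0.42, against 0.11 and 0.13. The sum was above 0 for 25 of the 26 shorter members and for 17 of the 26 longer ones. The part of length and GC content in this result was not tested beyond the alternative fits.

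**Figure D3:**
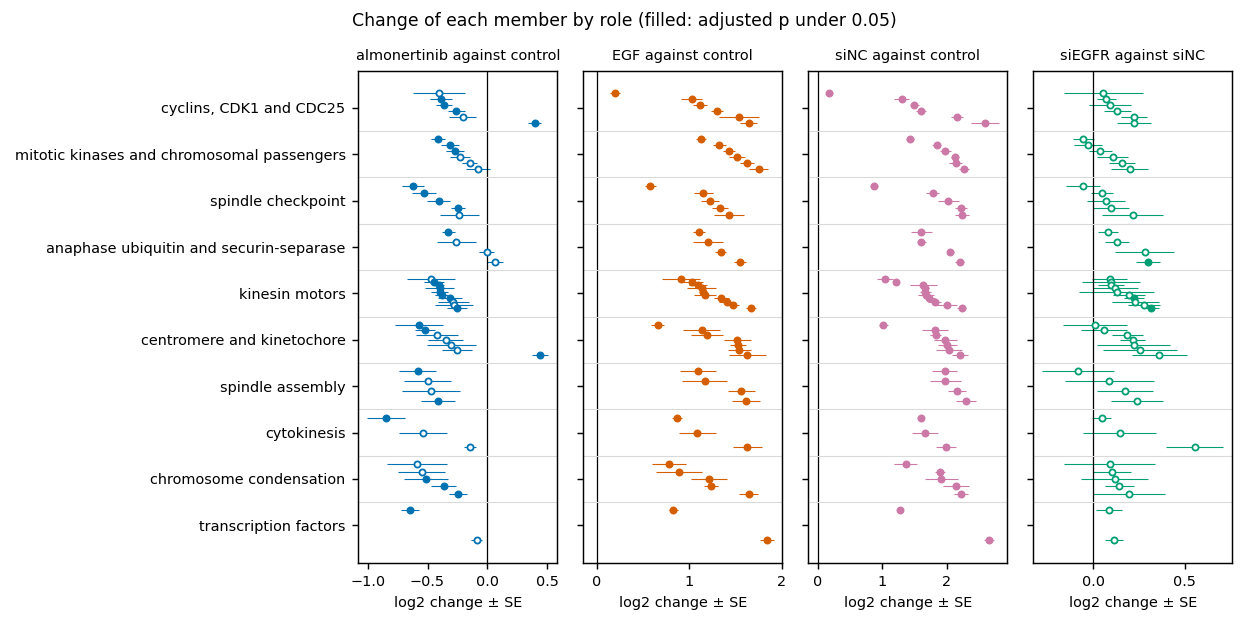
Log2 change ± SE of each tested member (horizontal axis, 1 point per gene) in 4 comparisons, by role (rows), with filled points for adjusted p under 0.05. All points are filled and to the right of 0 for EGF and siNC against control, 29 of 52 are filled for almonertinib with SPC24 and CDC25B to the right, and 3 are filled for siEGFR against siNC.

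Of the cyclins, CDK1 and the CDC25 phosphatases, all 6 rose with EGF, and with almonertinib 3 fell and CDC25B rose. CCNB1 encodes cyclin B1, the partner of CDK1 at mitotic entry. It was at 45.2, 41.5 and 44.9 FPKM in control, 33.02, 30.7 and 38.2 with almonertinib and 105, 110.3 and 113 with EGF, in replicate order. In siNC it was at 124, 125 and 128 and in siEGFR at 142, 149 and 148 FPKM. The 5 groups did not overlap. CCNB1 rose with EGF (1.30 ± 0.07, adjusted p = 9.15e-09) and fell with almonertinib (-0.36 ± 0.07, adjusted p = 0.002), and its change in siEGFR was 0.22 ± 0.07, adjusted p = 0.0894. CCNA2, which encodes cyclin A2, was at 5.898, 4.63 and 4.79 FPKM in control, 3.56, 3.21 and 4.21 with almonertinib and 19.1, 16.1 and 18.9 with EGF. The siNC libraries stood at 24.98, 26.3 and 26.8 and the siEGFR libraries at 29.95, 30.7 and 30.9 FPKM, again with no overlap between groups. Its changes were 1.64 ± 0.09, adjusted p = 1.81e-08 with EGF and -0.39 ± 0.09, adjusted p = 0.00794 with almonertinib.

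CDK1, the kinase that drives mitotic entry, varied more between replicates. Its control libraries were at 3.68, 1.699 and 2.08 FPKM, and those with almonertinib at 1.44, 0.997 and 2.45. With EGF it reached 9.97, 6.93 and 9.95, in siNC 19.5, 17.5 and 21.2 and in siEGFR 19.2, 19.9 and 21.4 FPKM. Almonertinib 3 lay above 2 of the control libraries, so the drug and control groups overlapped, and the change did not pass (-0.40 ± 0.22, adjusted p = 0.17). Its increases were 1.54 ± 0.22, adjusted p = 6.19e-05 with EGF and 2.59 ± 0.22, adjusted p = 2.6e-07 in siNC. The mean in siNC was 782% of control, the highest share among the members. CDC25B, a phosphatase that activates CDK1, ran apart from the rest. It was at 83.8, 82.9 and 92.4 FPKM in control and at 119, 114 and 109 with almonertinib, which was above every other group. The EGF libraries were at 98.1, 101 and 96.9, siNC at 96.6, 101 and 95.3 and siEGFR at 101, 105 and 101 FPKM. It rose with almonertinib (0.40 ± 0.05, adjusted p = 0.00019) and rose least of the members with EGF (0.19 ± 0.05, adjusted p = 0.00819). In the fit of the EGF and control libraries alone its adjusted p was 0.0708. CCNB2 fell with almonertinib (-0.26) and CDC25C did not pass (-0.21), and both rose with EGF, by 1.11 and 1.02.

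**Figure D4:**
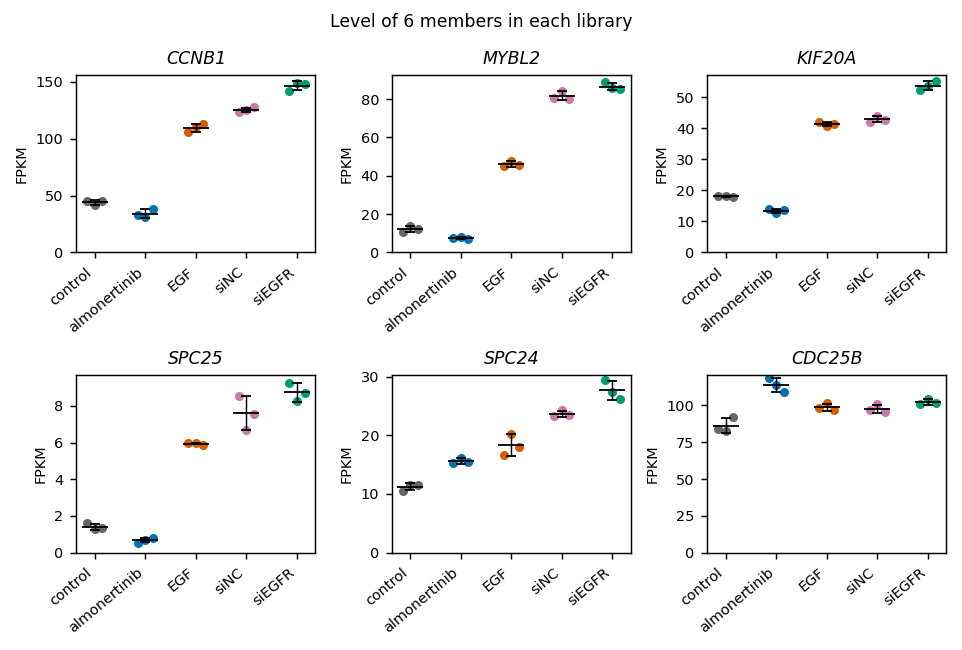
FPKM (vertical axis, linear from 0) of 6 members in each library, 3 points per group, with the mean (dash) and SD (bars). CCNB1, MYBL2, KIF20A and SPC25 are lowest with almonertinib and higher with EGF and in both siRNA groups, SPC24 is above control with almonertinib, and CDC25B is highest there.

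Among the mitotic kinases and the chromosomal passenger complex, which corrects faulty attachments of chromosomes, all 6 rose with EGF and 3 fell with almonertinib. CDCA8 encodes borealin, a passenger subunit. Its levels were 5.61, 5.79 and 6.81 FPKM in control, 5.22, 5.58 and 5.302 with almonertinib and 18.3, 19.02 and 16.9 with EGF. They were 29.1, 30.3 and 30.1 in siNC and 31.2, 31.02 and 29.8 in siEGFR. The drug libraries lay just below those of control, and the change did not pass (-0.15 ± 0.06, adjusted p = 0.0975), while the one with EGF did (1.43 ± 0.06, adjusted p = 2.13e-09). AURKA encodes Aurora A, a kinase of the spindle poles. It was at 7.98, 6.79 and 7.64 FPKM in control, 5.15, 5.84 and 6.53 with almonertinib and 26.1, 23.3 and 26.1 with EGF. The siNC libraries were at 39.5, 38.3 and 41.6 and the siEGFR libraries at 38.6, 39.1 and 39.2 FPKM, which overlapped. AURKA rose with EGF (1.63 ± 0.08, adjusted p = 3.41e-09) and fell with almonertinib (-0.31 ± 0.08, adjusted p = 0.00958).

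AURKB encodes Aurora B, the kinase of the passenger complex. Control libraries were at 10.7, 14.4 and 14.05 FPKM and almonertinib libraries at 12.6, 12.96 and 11.1, with overlap. With EGF it stood at 41.1, 50.6 and 46.5, in siNC at 60.3, 61.3 and 59.9 and in siEGFR at 71.3, 70.2 and 67.1 FPKM. Its drug change was the smallest of these 6 and did not pass (-0.08 ± 0.10, adjusted p = 0.581), whereas its increase with EGF was the largest of them (1.75 ± 0.10, adjusted p = 2.18e-08). PLK1, a kinase needed from mitotic entry to cytokinesis, was at 7.91, 10.4 and 9.08 FPKM in control and at 7.74, 8.11 and 7.01 with almonertinib. It was at 26.9, 30.4 and 26.4 with EGF, 37.8, 39.8 and 38.2 in siNC and 41.7, 42.3 and 40.7 in siEGFR. The drug and control libraries overlapped (-0.23 ± 0.08, adjusted p = 0.0557), and the EGF libraries lay above both (1.52 ± 0.08, adjusted p = 1.38e-08). INCENP, the scaffold of the passenger complex, and BIRC5, which encodes survivin, fell with almonertinib by 0.41 and 0.27 on the log2 scale.

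The spindle checkpoint holds anaphase back until every chromosome is attached. All 5 of its members rose with EGF and 4 fell with almonertinib. BUB1B, which encodes the checkpoint protein BUBR1, was at 4.16, 3.09 and 3.73 FPKM in control, 1.802, 1.89 and 2.402 with almonertinib and 11.5, 9.75 and 10.9 with EGF. It was at 20.4, 19.7 and 21.4 in siNC and 20.03, 19.3 and 19.7 in siEGFR. The drug libraries lay well below control, at 55.5% of its mean (-0.62 ± 0.09, adjusted p = 0.000415). MAD2L1 encodes MAD2, which blocks the activator CDC20. It was at 2.95, 2.15 and 2.37 FPKM in control, 1.404, 1.47 and 2.02 with almonertinib, 7.28, 6.45 and 7.602 with EGF and 10.7, 10.7 and 11.3 in siNC. Neither its drug nor its EGF libraries overlapped with control (-0.41 ± 0.10, adjusted p = 0.00831, and 1.22 ± 0.10, adjusted p = 4.31e-07).

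TTK, which encodes the kinase MPS1 that starts the checkpoint signal, had the largest p of the group with EGF. It was at 2.68, 1.36 and 1.601 FPKM in control and 1.39, 1.07 and 1.800 with almonertinib, with overlap (-0.23 ± 0.16, adjusted p = 0.294). The EGF libraries were at 7.83, 5.14 and 7.08 FPKM, above all of these (1.43 ± 0.16, adjusted p = 1.14e-05). BUB3, a checkpoint subunit, showed the smallest increase of the group. It was at 16.1, 17.4 and 15.5 FPKM in control, 14.5, 13.6 and 12.6 with almonertinib and 23.8, 25.6 and 24.9995 with EGF. In siNC it was at 29.1, 31.8 and 31.1 and in siEGFR at 32.1, 31.2 and 31.6 FPKM. It rose with EGF (0.58 ± 0.06, adjusted p = 4.22e-06) and fell with almonertinib (-0.25 ± 0.06, adjusted p = 0.00856). BUB1, a kinase of the kinetochore, fell with almonertinib (-0.53 ± 0.10) and was 2.23 higher in siNC than in control on the log2 scale.

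The genes of anaphase onset rose with EGF in all 4 cases, and with almonertinib only ESPL1, the protease separase that cuts cohesin, fell. ESPL1 was at 1.42, 1.397 and 1.47 FPKM in control, 1.08, 0.851 and 0.888 with almonertinib and 5.01, 5.22 and 5.18 with EGF. The siNC libraries were at 8.84, 9.51 and 8.88 and the siEGFR libraries at 9.41, 9.69 and 9.84 FPKM. Its changes were -0.33 ± 0.05, adjusted p = 0.00093 with the drug and 1.34 ± 0.05, adjusted p = 9.92e-10 with EGF. UBE2C, the ubiquitin-conjugating enzyme of the anaphase-promoting complex, was at 25.7, 24.7 and 22.8 FPKM in control and 23.5, 22.3 and 27.1 with almonertinib, and these overlapped (-0.01 ± 0.07, adjusted p = 0.943). It was at 71.4, 72.2 and 76.6 with EGF (1.55 ± 0.07, adjusted p = 1.37e-09), 114, 115 and 117 in siNC and 128, 125 and 125 in siEGFR. PTTG1, which encodes securin, the inhibitor of separase, was at 14.8, 12.01 and 14.001 FPKM in control and 8.52, 10.2 and 15.8 with almonertinib. Almonertinib 3 lay above all control libraries and the other drug libraries below them, and the change did not pass (-0.26 ± 0.16, adjusted p = 0.242). With EGF it was at 33.4, 27.8 and 36.4 FPKM (1.20 ± 0.16, adjusted p = 4.88e-05).

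CDC20 activates the anaphase-promoting complex. It was at 35.4, 42.6 and 39.6 FPKM in control and 37.9, 42.4 and 42.4 with almonertinib, with overlap (0.06 ± 0.07, adjusted p = 0.498). It was at 82.4, 88.1 and 84.99 with EGF, 118, 125 and 119.9 in siNC and 149, 153 and 145 in siEGFR. Every siEGFR library lay above every siNC library, and CDC20 rose with the knockdown (0.30 ± 0.07, adjusted p = 0.0191). Over the alternatives the adjusted p ran from 0.00189 to 0.105, the highest with median-ratio scaling.

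All 10 kinesins, a family of motor proteins that act on microtubules, rose with EGF, and 7 fell with almonertinib. KIFC1, a minus-end motor that bundles spindle fibres, was at 7.07, 8.12 and 8.15 FPKM in control, 5.62, 5.97 and 5.603 with almonertinib and 26.3, 27.9 and 26.6 with EGF. In siNC it was at 26.5, 27.6 and 26.2, a range that overlapped with EGF, and in siEGFR at 31.1, 31.2 and 31.7 FPKM. KIFC1 rose with EGF (1.67 ± 0.05, adjusted p = 1.84e-10), fell with almonertinib (-0.38 ± 0.05, adjusted p = 0.000286) and rose with the knockdown (0.22 ± 0.05, adjusted p = 0.0308). The last adjusted p ran up to 0.179, with median-ratio scaling. KIF20A encodes MKLP2, which brings the passenger complex to the midzone of the anaphase spindle. It was at 18.2, 18.04 and 17.98 FPKM in control, 13.9, 12.7 and 13.5 with almonertinib and 41.98, 40.7 and 41.4 with EGF. The siNC libraries stood at 42.2, 43.995 and 42.8 and the siEGFR libraries at 52.3, 53.7 and 55.2 FPKM. Its drug libraries lay below every other group and its siEGFR libraries above. KIF20A was called in each of the 3 treatment comparisons (-0.41 ± 0.04 with almonertinib, 1.15 ± 0.04 with EGF and 0.32 ± 0.04 with siEGFR), and the knockdown change had an adjusted p of 0.00084, which reached at most 0.0079 over the alternatives.

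KIF20B, a kinesin of late mitosis, had the largest p of the kinesins with EGF. It was at 2.28, 0.919 and 1.37 FPKM in control and 0.542, 0.6095 and 1.26 with almonertinib, with overlap (-0.47 ± 0.20, adjusted p = 0.0963). These levels rest on 75 reads in the lowest library and 1773 in the highest. With EGF it was at 4.61, 2.61 and 3.89, in siNC at 6.86, 5.798 and 7.39 and in siEGFR at 7.13, 7.23 and 7.72 FPKM (0.91 ± 0.20, adjusted p = 0.00239 for EGF). KIF4A, a motor of chromosome arms, was at 7.29, 6.26 and 6.45 FPKM in control, 4.51, 4.11 and 5.31 with almonertinib, 23.6, 23.7 and 25.5 in siNC and 27.4, 27.6 and 28.7 in siEGFR. Its groups did not overlap, and it fell with almonertinib (-0.45 ± 0.09, adjusted p = 0.00229). KIF23, the motor of centralspindlin, was at 3.13, 2.96 and 2.96 FPKM in control, 2.001, 1.82 and 2.35 with almonertinib, 17.9, 16.9 and 18.8 in siNC and 18.7, 20.1 and 18.7 in siEGFR, where only the siRNA groups overlapped (-0.40 ± 0.07, adjusted p = 0.00133 for the drug). KIF2C, KIF14 and KIF15 fell too (-0.25, -0.40 and -0.31). KIF11, the motor that pushes the spindle poles apart, and KIF18A, which shortens microtubules, did not pass (-0.28 and -0.28). KIF18A averaged 8.44 FPKM with EGF and 8.48 in siNC, and these libraries overlapped.

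The 7 centromere and kinetochore members, which tie chromosomes to the spindle, all rose with EGF. With almonertinib CENPF and SPC25 fell and SPC24 rose. SPC25 was at 1.61, 1.29 and 1.34 FPKM in control, 0.543, 0.714 and 0.787 with almonertinib and 5.96, 5.98 and 5.89 with EGF. It was at 8.54, 6.68 and 7.55 in siNC and 9.25, 8.24 and 8.72 in siEGFR, and its lowest library held 20 reads. Its drug libraries lay below all others (-0.52 ± 0.08, adjusted p = 0.000736), and those with EGF were above both drug and control (1.53 ± 0.08, adjusted p = 1.38e-08). SPC24 encodes the protein that pairs with SPC25 at the kinetochore end of the NDC80 complex. It was at 10.6, 11.6 and 11.5 FPKM in control and 15.3, 16.2 and 15.4 with almonertinib, with no overlap and in the opposite direction (0.44 ± 0.07, adjusted p = 0.000478). With EGF it was at 16.7, 20.3 and 17.97, in siNC at 23.3, 24.2 and 23.4 and in siEGFR at 29.4, 27.3 and 26.3 FPKM.

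The ratio of SPC24 to SPC25 in FPKM was 8.06 ± 1.29 in control and 23.5 ± 4.32 with almonertinib, and their ranges, 6.59 to 8.98 and 19.6 to 28.1, did not overlap. It was 3.08 ± 0.298 with EGF, 3.15 ± 0.452 in siNC and 3.17 ± 0.151 in siEGFR (SD, n = 3). The other pair of the complex, NDC80 to NUF2, kept ratios from 0.724 with almonertinib to 0.892 in siEGFR. The 2 pairs are not matched in base composition. The GC content of the longest transcript was 53.4% for SPC24 and 40.03% for SPC25. For NDC80 and NUF2 it was 40.1% and 38.8%. The part of GC content in these ratios was not tested.

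CENPA, the histone H3 variant that marks centromeres, was at 2.94, 2.21 and 3.11 FPKM in control and 1.81, 1.89 and 2.802 with almonertinib, with overlap (-0.25 ± 0.13, adjusted p = 0.146). It was at 11.1, 8.37 and 10.2 with EGF, 16.6, 15.5 and 16.6 in siNC and 17.6, 17.1 and 16.02 in siEGFR (1.54 ± 0.13, adjusted p = 5.38e-07 for EGF). CENPF, a large protein of the outer kinetochore, had the largest p of the group with EGF. It was at 9.19, 4.56 and 5.66 FPKM in control, 3.49, 3.399 and 4.85 with almonertinib and 17.9, 11.4 and 16.1 with EGF. Control 1 was the highest of these libraries apart from EGF, and almonertinib 3 lay within the control range. Its drug change passed despite this overlap (-0.57 ± 0.20, adjusted p = 0.0479), and its EGF change was 1.14 ± 0.20, adjusted p = 0.000412. CENPE, a kinesin of the kinetochore, and NDC80 and NUF2, which bind microtubules, did not pass with almonertinib (-0.42, -0.35 and -0.30).

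Of 5 members of spindle assembly, 4 were tested, all 4 rose with EGF, and TPX2 and DLGAP5 fell with almonertinib. TPX2, which activates Aurora A on the spindle, was at 18.7, 13.1 and 15.5 FPKM in control, 10.6, 9.63 and 14.8 with almonertinib and 51.3, 41.7 and 51.98 with EGF. In siNC it was at 73.4, 70.4 and 75.8 and in siEGFR at 85.3, 87.5 and 86.3 FPKM. Almonertinib 3 lay within the control range, and TPX2 fell all the same (-0.41 ± 0.14, adjusted p = 0.0437). DLGAP5, which encodes the spindle protein HURP, was at 5.07, 3.29 and 3.41 FPKM in control, 2.13, 1.77 and 2.95 with almonertinib and 15.4, 11.5 and 14.9 with EGF. Its drug and control libraries did not overlap (-0.58 ± 0.15, adjusted p = 0.013), and with EGF it rose by 1.61 ± 0.15. HMMR was at 4.12, 2.15 and 2.47 FPKM in control and 1.14, 1.45 and 3.03 with almonertinib, where almonertinib 3 exceeded 2 control libraries (-0.47 ± 0.24, adjusted p = 0.158). With EGF it was at 8.95, 5.26 and 9.22, in siNC at 14.01, 12.9 and 15.3 and in siEGFR at 14.2, 14.6 and 16.2 FPKM (1.17 ± 0.24, adjusted p = 0.00144 for EGF). ASPM, a protein of the spindle poles, did not pass with almonertinib (-0.50 ± 0.20, adjusted p = 0.0718).

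NUSAP1, a spindle-bundling protein, and PRC1, which crosslinks the midzone, failed the filter in this table. NUSAP1 did not exceed 0.168 FPKM, on 2 to 18 reads, and PRC1 was at 0.129, 0.152 and 0.161 FPKM in control and 0.712, 0.553 and 0.607 in siNC. In GENCODE v29 another protein-coding gene model on the same strand covers 62.2% of the NUSAP1 exons and 57.6% of those of PRC1. The model over NUSAP1 (AC087721.2) was at 0, and the one over PRC1 (AC068831.7) was at 0.255 FPKM in control and 0.92 in siNC on average. The part of the overlap in these low values was not tested. Overlaps over more than 5% of the exon length, beside those given elsewhere, were found for CCNA2 with EXOSC9 (9.08%, opposite strand), CDC25C with FAM53C (8.78%, opposite), BUB1B with BUB1B-PAK6 (10.2%, same), PRC1 with PRC1-AS1 (7.35%, opposite), SMC4 with IFT80 (7.18%, opposite) and CENPA with SLC35F6 (6.96%, same). KIFC1 and PLK1 overlap a pseudogene and an antisense gene on the opposite strand that averaged at most 0.119 FPKM in any group. Whether the counting used strand is not given in the sources used here, and the part of these overlaps in the results was not tested.

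Of 4 members of cytokinesis, the final cut between daughter cells, 3 were tested and rose with EGF. ANLN encodes anillin, which organises the contractile ring, and had the largest negative change with almonertinib among the members on the log2(FPKM + 1) scale, while CENPE, KIF14 and SPC25 kept a smaller share of their control level. It was at 16.6, 10.7 and 12.6 FPKM in control, 6.697, 5.74 and 8.29 with almonertinib and 48.7, 34.6 and 45.6 with EGF. It was at 55.5, 50.9 and 58.04 in siNC and 79.4, 80.04 and 83.02 in siEGFR. No groups next to each other overlapped. The drug left 51.9% of control (-0.85 ± 0.16, adjusted p = 0.00174), and siEGFR stood at 147% of siNC, which did not pass (0.55 ± 0.16, adjusted p = 0.0602). RACGAP1, a subunit of centralspindlin, was at 11.7, 10.8 and 10.9 FPKM in control, 10.2, 9.11 and 10.6 with almonertinib and 21.1, 20.7 and 21.5 with EGF. Its EGF change was 0.87 ± 0.05, adjusted p = 3.75e-08 and its drug change did not pass (-0.15 ± 0.05, adjusted p = 0.0567). ECT2, the exchange factor that switches on RhoA at the ring, was at 8.05, 4.79 and 4.94 FPKM in control, 3.304, 2.82 and 5.19 with almonertinib and 15.9, 10.4 and 14.5 with EGF. Almonertinib 3 lay within the control range (-0.54 ± 0.20, adjusted p = 0.0576).

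All 5 genes of chromosome condensation rose with EGF, and NCAPG, NCAPH and SMC2 fell with almonertinib. Condensin coils chromosomes, and NCAPG and NCAPH encode subunits of its first form. NCAPH was at 1.64, 1.24 and 1.57 FPKM in control, 0.956, 1.11 and 1.198 with almonertinib and 4.99, 4.47 and 5.02 with EGF (-0.25 ± 0.08, adjusted p = 0.0306 for the drug). It was at 8.43, 7.55 and 8.67 in siNC and 8.71, 9.23 and 9.52 in siEGFR. NCAPG was at 2.49, 1.73 and 1.81 FPKM in control, 1.38, 1.07 and 1.54 with almonertinib and 9.103, 7.29 and 8.71 with EGF (-0.37 ± 0.10, adjusted p = 0.0194 for the drug). Of its exon length 33.1% is shared with LCORL on the opposite strand, which was at 0.558 FPKM in control and 0.467 with EGF. SMC4, a core ATPase of condensin whose exons overlap TRIM59 on the opposite strand over 18.5% of their length (TRIM59 at 1.67 FPKM in control and 2.30 with EGF), had the largest p of all members with EGF. It was at 8.12, 3.65 and 4.35 FPKM in control, 2.66, 2.48 and 4.23 with almonertinib and 13.4, 6.98 and 11.5 with EGF. Control 1 exceeded EGF 2, and the changes were 0.89 ± 0.25, adjusted p = 0.00986 with EGF and -0.59 ± 0.25, adjusted p = 0.0902 with almonertinib. TOP2A, the topoisomerase that untangles sister chromatids, rose with EGF (1.21 ± 0.20) and did not pass with almonertinib (-0.55 ± 0.20, adjusted p = 0.0519).

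The transcription factors FOXM1 and MYBL2 are known activators of the other members. MYBL2 was at 10.7, 13.6 and 12.4 FPKM in control, 7.44, 7.84 and 6.97 with almonertinib and 44.9, 47.9 and 45.7 with EGF. It was at 80.6, 84.4 and 80.1 in siNC and 88.8, 85.9 and 85.1 in siEGFR, and no groups overlapped. It had the largest EGF change of the members on the log2(FPKM + 1) scale, but not as a share of control (1.84 ± 0.07, adjusted p = 7.3e-10) and fell with almonertinib (-0.65 ± 0.07, adjusted p = 4.88e-05). FOXM1 was at 7.81, 8.500 and 8.56 FPKM in control and 7.903, 7.36 and 7.92 with almonertinib, with overlap (-0.09 ± 0.05, adjusted p = 0.174). With EGF it was at 16.03, 15.3 and 14.998, in siNC at 20.96, 21.6 and 21.6 and in siEGFR at 23.6, 23.1 and 22.8 FPKM. FOXM1 rose with EGF (0.83 ± 0.05, adjusted p = 2.37e-08), less than MYBL2 did. Its exons overlap ITFG2 on the opposite strand over 15.9% of the exon length, and ITFG2 was at 2.89 FPKM in control and 2.21 with EGF.

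Within groups, the libraries differed in a way that the members shared. Control 1 was the highest control library for 38 of 52 members and control 2 the lowest for 38, almonertinib 3 was the highest of its group for 39, and EGF 2 the lowest for 35. Almonertinib 2 was the lowest of its group for 32 members and siNC 2 for 30, while siEGFR 2 was the lowest for 14. Across the 52 members, the deviation of control 1 from its group mean had a correlation of -0.85 with the GC content of the longest transcript and 0.48 with the log2 length. For almonertinib 3 these were -0.67 and 0.07, and for EGF 2 0.80 and -0.50. The correlation with GC content was 0.79 for control 2, 0.70 for almonertinib 2, 0.76 for siNC 2 and 0.39 for siEGFR 2. The nuclear transcript MALAT1 stood at 99.4, 48.5 and 69.95 FPKM in control, 66.6, 55.1 and 85.99 with almonertinib and 61.3, 45.5 and 55.99 with EGF, so it was high and low in the same libraries. The part of these differences in the results was not tested beyond the alternative fits. Those without control 1, almonertinib 3 and EGF 2 are given above, and the one with a replicate block below.

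Across members the change with almonertinib went with GC content (Pearson 0.51, Spearman 0.52 over 52 genes of the same libraries), and it did so across 14410 loci too (0.41 and 0.46). It went with log2 length too (-0.39 and -0.40, and -0.16 and -0.27 across all loci). The change with EGF went with length (-0.36 and -0.42), at 0.01 and -0.03 across all loci, and hardly with GC content (0.04 and 0.14). The 26 shorter members had a median EGF change of 1.48 and the 26 longer ones, above 4458.5 bases, 1.16. For siNC against control these medians were 1.91 and 1.90. With trends in length and GC removed from all loci, 31 members fell and 2 rose with almonertinib (21.7% of loci fell), and 52 rose with EGF (26.2%).

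**Figure D5:**
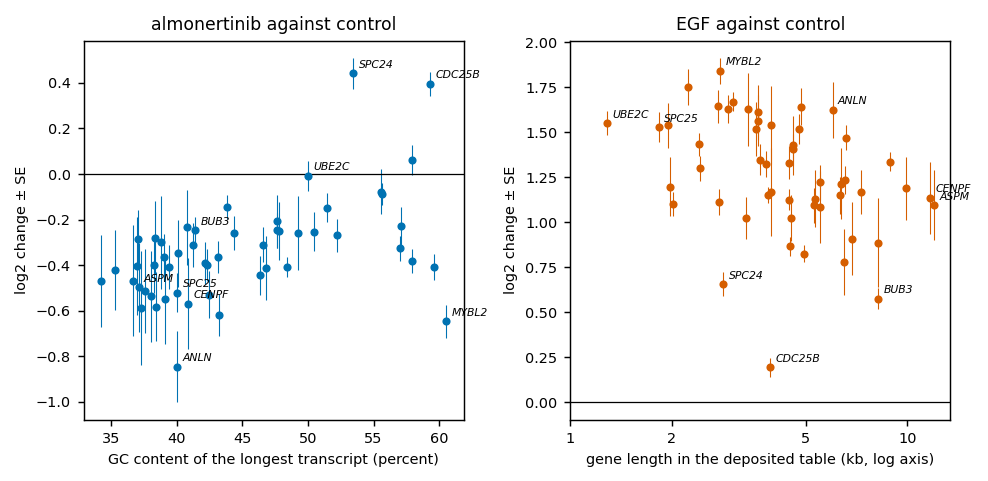
Log2 change ± SE of the 52 members with almonertinib against the GC content of the longest transcript in percent (left) and with EGF against gene length in kb on a log axis (right), 1 point per gene. On the left the changes lean upward with GC content, with SPC24 and CDC25B above 0, and on the right the long genes ASPM and CENPF lie below the short gene UBE2C.

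The members were also split by TTTGAA near the start, as a description with no test. Only these exact letters at the start listed first were counted, so a member without them is not shown to lack a CHR. The median change with EGF was 1.33 for 25 tested members with it and 1.20 for 19 without, with almonertinib -0.40 and -0.39, and in siNC 1.83 and 1.91. The 2 members that rose with almonertinib, SPC24 and CDC25B, and MYBL2, with the largest log2 change with EGF, were among those without it. For CCAAT the medians with EGF were 1.21 for 31 members with a box and 1.33 for 13 without.

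The rest of the G2/M programme, listed apart from the members, moved likewise. Of 55 other G2/M and mitosis genes 55 rose with EGF and 55 were higher in siNC, and with almonertinib 27 fell and 1 rose. With EGF the smallest p among them belonged to SPAG5, a spindle protein (1.27 ± 0.04), CDCA3, a trigger of mitotic entry (1.48 ± 0.05), and HJURP, the chaperone of CENPA (1.60 ± 0.06). With almonertinib they were KPNA2, an importin (-0.58 ± 0.06), LMNB1, which encodes lamin B1 (-0.50 ± 0.06), and SPAG5 (-0.29 ± 0.04). With siEGFR 5 rose and 1 fell (2.27% and 3.19% of all loci). CDCA3 (0.22 ± 0.05) and the kinesin KIF22 (0.17 ± 0.04) were among those that rose, and NCAPD3, a condensin subunit, fell (-0.21 ± 0.05).

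Genes of G1/S and DNA replication did the same in both increases: 37 of 37 rose with EGF and 37 were higher in siNC. RRM2, a subunit of ribonucleotide reductase (1.83 ± 0.06), CDC6, which loads the replicative helicase (1.66 ± 0.06), and the helicase subunit MCM4 (1.07 ± 0.04) led with EGF. With almonertinib 14 fell and 1 rose. That gene was CDT1, the licensing factor (0.93 ± 0.10), beside falls of UHRF1, which reads hemimethylated DNA (-1.07 ± 0.11), and RRM2 (-0.50 ± 0.06). None passed in siEGFR against siNC.

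The counts among the regulators around the members were small, and are to be read beside the shares of all loci: 22% rose and 27.3% fell with EGF, and 12.1% rose and 18% fell with almonertinib. Of 16 tested subunits and regulators of the anaphase-promoting complex, 4 rose and 2 fell with EGF, and 4 fell with almonertinib. ANAPC7, a scaffold subunit, rose with EGF (0.77 ± 0.05) and fell with almonertinib (-0.40 ± 0.05), as did FBXO5, the inhibitor EMI1 (0.91 ± 0.10 and -0.32 ± 0.10). ANAPC1 fell with almonertinib (-0.39 ± 0.09). UBE2S, which extends ubiquitin chains, rose with EGF (1.41 ± 0.10). Among 13 genes of DREAM, MuvB and NF-Y, 4 rose and 2 fell with EGF. NFYB, a subunit of the factor that binds CCAAT, fell from 13.8 ± 1.53 to 5.24 ± 0.397 FPKM (-1.24 ± 0.10), E2F4 rose (0.39 ± 0.05) and TFDP1, the partner of E2F proteins, rose (0.43 ± 0.06). With almonertinib TFDP1 (-0.34 ± 0.06) and NFYA (-0.38 ± 0.07) fell and NFYC rose (0.27 ± 0.08).

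Of 10 kinases and checkpoint genes of G2 entry, 5 rose and 1 fell with EGF, led by SFN, a 14-3-3 protein that can hold cells in G2 (1.57 ± 0.07), the phosphatase CDC25A (0.97 ± 0.07) and PKMYT1, a kinase that restrains CDK1 (1.35 ± 0.09). With almonertinib 6 fell and GADD45A, a stress gene, rose (0.56 ± 0.09), while ATR, the replication stress kinase (-0.58 ± 0.10), and CDC25A (-0.27 ± 0.07) fell. Among 11 CDK inhibitors and exit genes, 3 rose and 4 fell with EGF, near the shares of all loci. CDKN1A, which encodes p21, rose both with almonertinib (0.34 ± 0.07) and with EGF (0.94 ± 0.07), and CDKN2B, which encodes p15, fell with the drug (-0.31 ± 0.05) and rose with EGF (0.56 ± 0.05). CDKN2C rose with almonertinib (0.37 ± 0.09) and CDKN2D with EGF (1.17 ± 0.11).

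Over the 15 libraries the members had nearly 1 profile. The Pearson correlation of each with the mean of their z-scores, which includes the member itself, had a median of 0.99, and 50 of 52 exceeded 0.9, as did 14.4% of all loci. CDC25B (-0.05) and SPC24 (0.87) were the exceptions. Outside the lists, the protein-coding genes most like this profile were FANCI (0.999), SHCBP1 (0.998), FAM111B (0.997), ERCC6L (0.996), DIAPH3 (0.996) and CDCA5 (0.995). FANCI was at 1.11 FPKM in control, 0.656 with almonertinib, 3.78 with EGF, 6.18 in siNC and 6.92 in siEGFR on average, and CDCA5, which encodes sororin, a protector of cohesin, at 3.84, 3.52, 12.6, 22.2 and 24.9 FPKM. These correlations follow the differences between 5 groups and are a description.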

How the data were processed

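The authors deposited 1 table of FPKM values per locus and library. Per the submitters' processing notes, reads were handled with build hg19 and the tools HISAT2, featureCounts and DESeq2, whose versions are not listed; the annotation and the use of strand are not given in the sources used here. Values were analysed as log2(FPKM + 1), so that changes of low genes are understated, with limma 3.58.1 in R 4.3.3 (intensity trend, robust variances, 10 residual degrees of freedom) over all 15 libraries. Loci with at least 1 FPKM in at least 3 libraries entered, and p-values were Benjamini-Hochberg adjusted over all 14999 of them per comparison, with a threshold of 0.05. Errors of log2 changes are standard errors. Each gene had 1 estimate of spread shared by the 5 groups, although their spread differed. The median SD of the members in log2 units was 0.17 in control, 0.15 with almonertinib and 0.13 with EGF. It was 0.06 in siNC and 0.04 in siEGFR. Errors of the drug comparison therefore also rest on the tighter siRNA libraries, and those of the knockdown on the wider ones. Reads were recovered from the steps of the values: 99.9947% of positive values came out whole within 0.01 reads. The code was tested on simulated data.

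The members, lists and tests were chosen with earlier results of these data known. Values per library are given for the 2 members of each role with the smallest p with EGF, the 1 with the largest, 7 fixed genes (CCNB1, CDK1, PLK1, AURKB, BUB3, FOXM1, MYBL2) and up to 10 called members in the knockdown comparisons; of other lists, the 3 called genes with the smallest p. The alternatives without control 1, almonertinib 3 and EGF 2, and with length and GC trends removed, were chosen after seeing the data. One overlap of a member with a neighbouring locus is not reported here.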

Additional observations from a re-analysis of the deposited data

How the results depend on the processing

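The increases of all 52 members with EGF and in siNC kept 50 to 54 calls in every alternative run. With almonertinib 27 members fell, against 6 in a fit of the groups compared alone, 18 with no filter and 16 at an adjusted p under 0.01, and 43 without control 1, almonertinib 3 and EGF 2; leaving out 1 library gave 16 to 40 (16 without almonertinib 2, 18 without control 1, 40 without almonertinib 3). With siEGFR 3 rose, against 20 in the fit of the groups alone, 2 with no filter or median-ratio scaling, 5 with voom on recovered reads, 1 at an adjusted p under 0.01, 8 without control 1 and almonertinib 3, 15 without these and EGF 2 and 10 with trends removed; leaving out 1 library gave 1 to 2. The difference of effects was below 0 for 22 members, against 10 at an adjusted p under 0.01, 34 with trends removed and 45 without these 3 libraries, and 15 to 34 with 1 library left out (34 without almonertinib 3); it was above 0 for 1, and for 0 with TPM scaling, with trends removed and at an adjusted p under 0.01. With trends removed 1 member was higher with EGF than in siNC and KIFC1 was at -0.114. Correlations of same-numbered deviations ran from -0.169 to 0.597, and 10 of 30 exceeded 0.1. For replicate 2 they were 0.539 for control and almonertinib, 0.597 for control and EGF, and 0.528 for almonertinib and EGF. With siNC 2 these groups had 0.173 to 0.216, and siEGFR 2 had -0.00675 to 0.0374 with the others. Other numbers ran both ways, from 0.550 for control 1 and EGF 1 to -0.169 for control 3 and almonertinib 3. For 1 library the best match carried its own number in every other group. Whether equal numbers mark libraries handled together was not tested. With a replicate block 37 members fell with almonertinib, 4 rose with siEGFR, 52 rose with EGF and in siNC, 47 were lower with EGF than in siNC, 30 had a difference of effects below 0 and 44 a sum above 0. Low read counts limit NUSAP1 and PRC1.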
